A study of Mus musculus with 8 samples.

Results

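The aryl hydrocarbon receptor pathway was followed through 7 genes, Ahr, Arnt, Ahrr, Cyp1a1, Cyp1b1, Tiparp and Nqo1, in mouse mammary cells given dexamethasone, estradiol or both. Every probe set of the array whose single annotated gene symbol was one of the 7 was kept, which gave 16 of 45037 probe sets (7 of 18193 genes). Arnt had 5 probe sets, Cyp1b1 3, Tiparp 3, Ahr 2 and the other 3 members 1 each. The genes are textbook members of the pathway. It was chosen by the measured differences of Ahr from untreated cells after dexamethasone alone and after both hormones, which were known to be among the lowest. Those 2 comparisons are therefore described for the members without a test, and so is Ahr in every comparison built from its levels on the Dex + E2 arrays.

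The aryl hydrocarbon receptor is a ligand-activated transcription factor of the bHLH-PAS family. Without ligand it is held in the cytoplasm by chaperones, and with a ligand such as dioxin or a tryptophan metabolite it enters the nucleus, pairs with Arnt and binds a short DNA element with the core GCGTG near genes for xenobiotic metabolism. Its targets include the cytochrome P450 genes Cyp1a1 and Cyp1b1, the quinone reductase gene Nqo1, and the feedback inhibitors Ahrr and Tiparp. In breast tissue the receptor is best known for toxicology and for crosstalk with estrogen signalling.

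The samples were 8 arrays of the 7438 line, 2 in each of 4 groups. All cells carried GFP-GR, a fluorescent glucocorticoid receptor, and Cherry-ER, a fluorescent estrogen receptor, each behind a tetracycline-regulated promoter, and all were kept in hormone-depleted serum and freed of tetracycline for 24 hours to switch both receptors on. The groups were Dex + E2 (100 nM dexamethasone and 100 nM estradiol), Dex (100 nM dexamethasone), E2 (100 nM estradiol) and untreated cells, with hormone given for 2 hours. The labels name no added ligand of the aryl hydrocarbon receptor, do not say whether the line is 1 clone, and give no separate culture for each replicate. The p-values therefore cover the array-to-array spread alone, and that spread may be technical.

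The values are log2 signals after robust multi-array averaging (RMA), in which levels of different probe sets cannot be compared and differences of dim probe sets are compressed. In bulk RNA, fewer cells of a type and less RNA per cell cannot be told apart. Replicate arrays correlated at 0.996 to 0.998, and the Dex + E2 pair differed most, with 1249 probe sets over 0.5 log2 units apart against 92 to 305 in the other groups. For 2 arrays, Dex + E2 replicate 1 and E2 replicate 2, the description field mentions a different assay, so grouping follows the title and the treatment label. Of the 8 epithelial markers, Cdh1 lay lowest, at the 4.11 percentile of mean signal, and Krt14 highest, at the 77.2, with Krt18 at the 26.1 and Epcam at the 66.1. Of the 5 mesenchymal markers, Vim and Col1a2 both lay at the 99.8 percentile, Pdgfrb at the 95.2, Col3a1 at the 80.8 and Col1a1 at the 51.2. The immune, endothelial and adipocyte markers measured lay at the 9.07 to 34.8 percentile, except Cd3e at the 60.9.

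The promoters of the 4 textbook target genes that encode inhibitors or P450 enzymes are shown because the transcripts of these genes are the usual readout of the receptor. Each is 300 bases, from 250 before the gene's start to 50 after it, 5′ to 3′ along the gene (RefSeq, GRCm38.p6), with each match to the receptor's core in capitals (GCGTG, or CACGC on the other strand).
Tiparp promoter, chr3:65528197-65528496, + strand: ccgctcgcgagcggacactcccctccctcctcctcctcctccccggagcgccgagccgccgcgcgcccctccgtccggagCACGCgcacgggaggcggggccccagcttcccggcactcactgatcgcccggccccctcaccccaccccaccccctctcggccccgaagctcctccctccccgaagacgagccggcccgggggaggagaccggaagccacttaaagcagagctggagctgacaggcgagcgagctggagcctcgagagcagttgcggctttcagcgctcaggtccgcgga
Ahrr promoter, chr13:74292282-74292581, - strand: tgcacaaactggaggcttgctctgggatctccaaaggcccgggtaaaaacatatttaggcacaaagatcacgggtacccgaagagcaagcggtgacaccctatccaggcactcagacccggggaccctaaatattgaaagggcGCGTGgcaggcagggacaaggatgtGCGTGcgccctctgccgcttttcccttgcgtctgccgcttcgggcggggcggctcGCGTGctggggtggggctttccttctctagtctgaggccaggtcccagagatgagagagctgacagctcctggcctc
Cyp1a1 promoter, chr9:57697363-57697662, + strand: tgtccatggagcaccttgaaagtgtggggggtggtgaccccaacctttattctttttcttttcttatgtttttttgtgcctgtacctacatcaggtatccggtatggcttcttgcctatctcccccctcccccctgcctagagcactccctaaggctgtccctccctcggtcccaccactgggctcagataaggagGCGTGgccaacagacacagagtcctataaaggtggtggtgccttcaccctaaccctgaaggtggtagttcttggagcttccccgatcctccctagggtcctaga
Cyp1b1 promoter, chr17:79715012-79715311, - strand: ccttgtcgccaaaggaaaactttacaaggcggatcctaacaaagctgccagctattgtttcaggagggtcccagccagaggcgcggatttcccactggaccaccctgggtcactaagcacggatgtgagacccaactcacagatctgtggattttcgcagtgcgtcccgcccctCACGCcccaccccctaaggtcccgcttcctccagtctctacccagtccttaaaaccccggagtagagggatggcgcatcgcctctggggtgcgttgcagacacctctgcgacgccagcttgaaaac

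Promoters were found in the RefSeq table for 6 of the 7 members, all but Ahr. The Ahrr promoter held 3 matches to the core, a number reached by 3.91% of 32851 promoters. The Tiparp, Cyp1a1, Cyp1b1 and Arnt promoters held 1 match each and the Nqo1 promoter 0, where 32.4% of all promoters held at least 1. The longer letters TNGCGTG (or CACGCNA on the other strand), which contain the core, matched once in the Ahrr promoter and in 0 of the other 5, against 5.07% of all promoters. These matches describe letters in a short window and not binding.

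The receptor gene Ahr had the widest spread of the members. On probe set 1422631_at its log2 signal was 6.75 and 6.88 on the Dex + E2 arrays, 6.49 and 6.70 on the Dex arrays, 7.99 and 7.84 on the E2 arrays, and 8.49 and 8.41 on the untreated arrays. The order of the groups was Dex, Dex + E2, E2 and untreated from low to high, and no neighbouring groups overlapped. The Dex group was lower than untreated by a log2 difference of -1.85 ± 0.10 (SE, n = 2 each), a 3.61-fold lower signal, and the Dex + E2 group by -1.63 ± 0.10, or 3.10-fold. Over 45037 probe sets ranked by the difference from untreated, Ahr came in place 3 from the lowest with Dex and in place 10 with Dex + E2. These values were the ones that drew attention to the pathway and are given as a description. In the same comparisons limma called 0.349% of all probe sets lower with Dex and 0.373% lower with Dex + E2.

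With estradiol alone, Ahr averaged 7.92 ± 0.11 in E2 cells and 8.45 ± 0.055 in untreated cells (log2, SD, n = 2 each). The difference was -0.53 ± 0.10 log2 units, 1.45-fold lower, with a 95% interval of -0.76 to -0.30, and both E2 arrays lay below both untreated arrays. This comparison was not used to choose the pathway, but it shares the untreated arrays with both comparisons that were, so it is not independent of them. It did not pass the threshold of an adjusted p under 0.05 (limma, unadjusted p = 0.000433, Benjamini-Hochberg adjusted p = 0.270 over 45037 probe sets). The adjusted p over 17 alternative settings ran from 0.152 upward, so the call was missed in each of them.

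The comparisons of Ahr that follow are built from the levels by which the pathway was chosen, so they are descriptions and carry no test. Ahr averaged 6.81 ± 0.094 in Dex + E2 cells and 6.60 ± 0.15 in Dex cells (log2, SD, n = 2 each), a difference of 0.22 ± 0.10 log2 units (SE). In E2-treated cells the difference with dexamethasone was -1.10 ± 0.10, with 6.81 in Dex + E2 cells against 7.92 in E2 cells. The dexamethasone difference was thus -1.10 with estradiol present and -1.85 without it. The interaction, which is the first of these minus the second, was 0.75 ± 0.15 log2 units (SE).

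**Figure D1:**
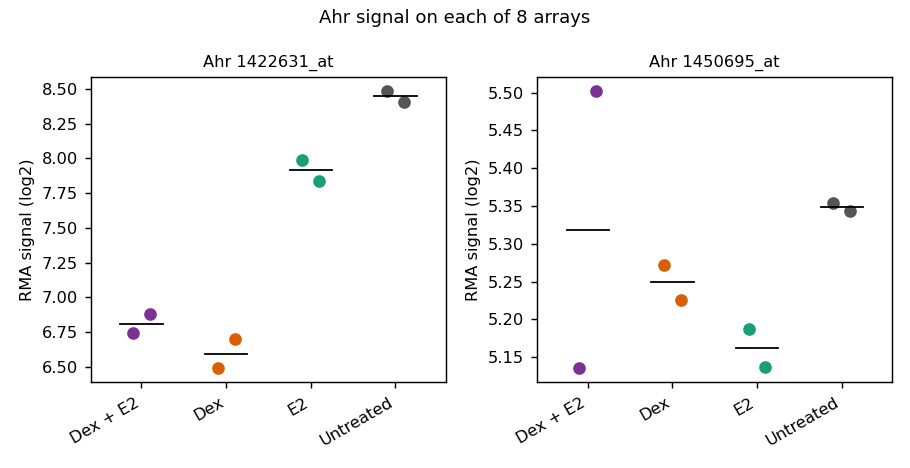
RMA signal (log2, each panel with its own axis range) of the 2 Ahr probe sets on each array (points) with group means (lines), for Dex + E2, Dex, E2 and untreated cells. On 1422631_at the 4 arrays with dexamethasone lie between 6.49 and 6.88 and the 4 without it between 7.84 and 8.49, while 1450695_at spans 0.37 log2 units in all.

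The second Ahr probe set, 1450695_at, did not show this pattern, although both were designed from the same sequence record. Its log2 signal was 5.14 and 5.50 in Dex + E2 cells, 5.27 and 5.23 in Dex cells, 5.19 and 5.14 in E2 cells, and 5.35 and 5.34 in untreated cells. The 2 Dex + E2 arrays were the lowest and the highest of this probe set, level with an E2 array at the low end. Its difference from untreated was -0.03 ± 0.11 with Dex + E2, -0.10 ± 0.11 with Dex and -0.19 ± 0.11 with E2, and the E2 difference did not pass (limma, adjusted p = 0.944). Between Dex + E2 and E2 cells it was 0.16 ± 0.11, the other direction from 1422631_at. It lay at the 43.5 percentile of mean signal, against the 71.8 for 1422631_at. With the mean of both probe sets the Dex difference of Ahr was -0.97 and the Dex + E2 difference -0.83.

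Arnt encodes the partner that the receptor shares with the hypoxia-inducible factors. Its brightest probe set, 1437042_at, had log2 signals of 9.16 and 9.14 in Dex + E2 cells, 9.11 and 9.27 in Dex cells, 9.21 and 9.25 in E2 cells, and 9.33 and 9.18 in untreated cells. Neighbouring groups overlapped throughout the order Dex + E2, Dex, E2 and untreated. The 5 Arnt probe sets spanned 0.16 to 0.30 log2 units over all 8 arrays. The E2 difference of 1437042_at was -0.03 ± 0.095 with a 95% interval of -0.24 to 0.18 (limma, adjusted p = 0.996), and the dexamethasone difference in E2-treated cells was -0.08 ± 0.095, interval -0.29 to 0.13 (limma, adjusted p = 0.780). On 1419996_s_at, at the 81.7 percentile, the 2 differences were -0.07 ± 0.087 and -0.0049 ± 0.087.

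Tiparp encodes a mono-ADP-ribosyltransferase that is induced by the receptor and in turn restrains it. On probe set 1426721_s_at its log2 signal was 10.76 and 11.21 in Dex + E2 cells, 10.41 and 10.59 in Dex cells, 10.75 and 11.02 in E2 cells, and 10.37 and 10.28 in untreated cells. On 1452160_at it was 10.62 and 10.96 in Dex + E2 cells, 10.15 and 10.46 in Dex cells, 10.59 and 10.80 in E2 cells, and 10.20 and 10.08 in untreated cells. On 1452161_at it was 9.36 and 9.91 in Dex + E2 cells, 9.14 and 9.28 in Dex cells, 9.52 and 9.84 in E2 cells, and 9.07 and 8.84 in untreated cells. On all 3 probe sets the 4 arrays with estradiol lay above the 4 arrays without it, and the Dex + E2 and E2 groups overlapped. The 3 probe sets come from 1 sequence record and are not independent measurements.

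Estradiol alone went with a Tiparp signal 0.56 ± 0.15, 0.55 ± 0.14 and 0.73 ± 0.17 log2 units above untreated on 1426721_s_at, 1452160_at and 1452161_at, which is 1.47-, 1.47- and 1.66-fold. In dexamethasone-treated cells the estradiol differences, Dex + E2 minus Dex, were 0.49 ± 0.15, 0.48 ± 0.14 and 0.43 ± 0.17. Over the arrays left out in turn, Dex + E2 minus Dex ran from 0.26 to 0.71, 0.31 to 0.65 and 0.15 to 0.70. None of the 6 passed with all arrays (limma, adjusted p = 0.466 to 0.571 for E2 alone and 0.935 to 0.996 with Dex), with unadjusted p from 0.00157 to 0.0316. Averaged over both dexamethasone states, the 4 arrays with estradiol were higher than the 4 without by 0.52 ± 0.10, 0.52 ± 0.099 and 0.58 ± 0.12 (unadjusted p = 0.000496, 0.000346 and 0.000703), and missed the threshold at limma adjusted p = 0.217, 0.179 and 0.257. Arrays apart in this way, 4 above 4, occurred in 1.05% of all probe sets, and limma called 0.0533% for this effect.

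Whether Tiparp passed depended on the arrays and the prior used. The mean estradiol effect passed in 2 of 16 alternatives on 1426721_s_at, 1 of 14 on 1452160_at and 2 of 14 on 1452161_at. It missed in all others. Dex + E2 replicate 1 was the lower array of its pair on the 3 probe sets, so leaving it out raises the effect. Leaving out 2 arrays together was chosen after seeing the data. Where an array is left out here and below, the lone array of its group is assumed to vary like the other groups. Without Dex + E2 replicate 1, one of the 2 arrays whose descriptions name another experiment, the mean estradiol effect was 0.63 on 1426721_s_at and 0.71 on 1452161_at and passed on both (limma, adjusted p = 0.0306), where 71 of 45037 probe sets passed, against 24 with all arrays. Without that array and E2 replicate 2 together it was 0.57 and 0.63 (adjusted p = 0.0481 and 0.0452, with 59 probe sets passing in all). Dex + E2 minus Dex was then 0.71 on 1426721_s_at and passed too (adjusted p = 0.0396), where 243 probe sets passed, against 3 with all arrays. With all arrays and a trended, robust prior the mean effect passed on 1452160_at (0.52, adjusted p = 0.0424), with 76 probe sets in all. Over the arrays left out in turn the mean effect lay between 0.41 and 0.71 on the 3 probe sets.

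**Figure D2:**
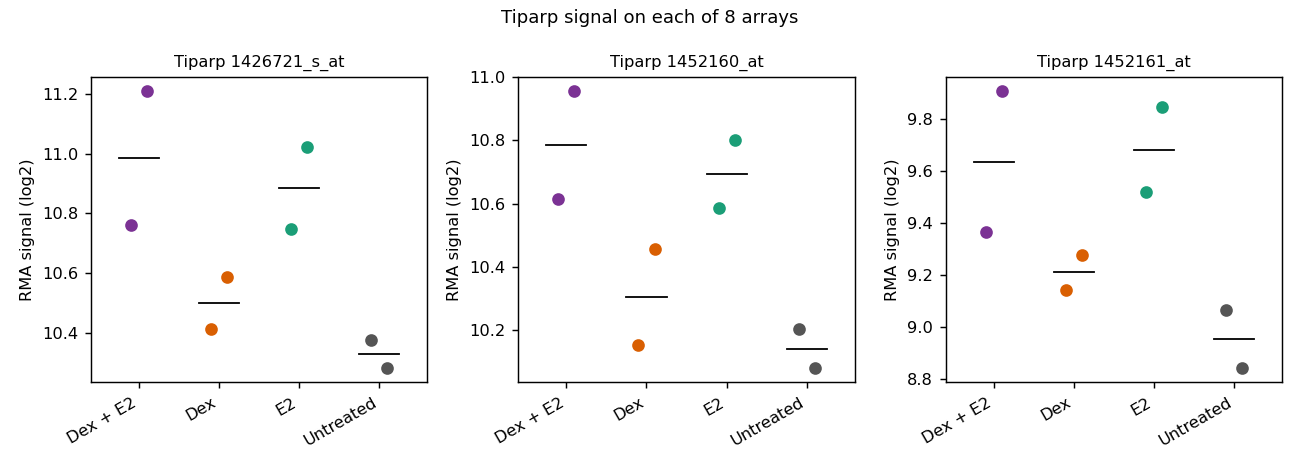
RMA signal (log2, each panel with its own axis range) of the 3 Tiparp probe sets on each array (points) with group means (lines), for Dex + E2, Dex, E2 and untreated cells. In each panel the 4 arrays with estradiol lie above the 4 arrays without it, and replicate 2 of Dex + E2 is the highest array.

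With dexamethasone on top of estradiol, Tiparp arrays of both groups overlapped. The Dex + E2 minus E2 difference was 0.10 ± 0.15, 0.09 ± 0.14 and -0.04 ± 0.17 on the 3 probe sets, with 95% intervals of -0.23 to 0.43, -0.22 to 0.40 and -0.42 to 0.33 (limma, adjusted p = 0.818 to 0.942). The direction turned with single arrays left out, from -0.12 to 0.33 on 1426721_s_at. As a description, Dex alone stood 0.17 ± 0.15, 0.16 ± 0.14 and 0.26 ± 0.17 above untreated, and Dex + E2 0.66 ± 0.15, 0.65 ± 0.14 and 0.68 ± 0.17. Over the arrays left out in turn, the Dex values ran from 0.084 to 0.26, 0.012 to 0.31 and 0.15 to 0.37. The interaction did not pass on any of the 3 (limma, adjusted p = 0.897 to 0.978, unadjusted p = 0.239 to 0.740).

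With estradiol alone Ahr lay below and Tiparp above untreated cells, by differences that each missed the threshold. Ahr 1422631_at was lowest on the 4 arrays with dexamethasone, and Tiparp was highest on the 4 arrays with estradiol.

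Ahrr encodes a repressor that competes with the receptor for Arnt. Its 1 probe set, 1420796_at, lay at the 26.2 percentile, with 4.30 and 4.27 in Dex + E2 cells, 4.43 and 4.39 in Dex cells, 4.59 and 4.36 in E2 cells, and 4.59 and 4.41 in untreated cells. The Dex + E2 arrays were the lowest 2, below every other array. The difference was -0.13 ± 0.10 from Dex (limma, adjusted p = 0.996) and -0.19 ± 0.10 from E2 (limma, adjusted p = 0.489), so neither passed. A probe set this dim limits what can be read from its 0.32-unit range.

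Cyp1a1, the classical target of the receptor and a P450 enzyme that oxidises polycyclic aromatic hydrocarbons, was dim as well, at the 34.3 percentile. Probe set 1422217_a_at had log2 signals of 4.77 and 4.85 in Dex + E2 cells, 4.72 and 4.73 in Dex cells, 4.77 and 4.80 in E2 cells, and 4.97 and 4.91 in untreated cells. Both untreated arrays lay above the 6 hormone-treated arrays, within a range of 0.25 log2 units over all 8. The E2 difference was -0.16 ± 0.083 with a 95% interval of -0.34 to 0.03 (limma, adjusted p = 0.934). The Dex and Dex + E2 differences, described only, were -0.22 ± 0.083 and -0.13 ± 0.083.

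Cyp1b1 encodes a P450 enzyme that hydroxylates estradiol. Its brightest probe set, 1432081_at at the 42.3 percentile, had 5.04 and 5.86 in Dex + E2 cells, 5.18 and 4.96 in Dex cells, 5.17 and 5.07 in E2 cells, and 5.29 and 5.08 in untreated cells. One array, Dex + E2 replicate 2, stood above the other 7, and the rest of the values overlapped. The Dex + E2 minus Dex difference was 0.38 ± 0.21 (limma, adjusted p = 0.996) and Dex + E2 minus E2 0.33 ± 0.21 (limma, adjusted p = 0.548). With replicate 2 as the only Dex + E2 array they became 0.79 and 0.74 and passed (limma, adjusted p = 0.0459 and 0.0192), with the spread of that lone array taken from the other groups and with 168 and 1974 of 45037 probe sets passing, against 3 and 151 with all arrays. With replicate 1 as the only one they were -0.04 and -0.08. The other probe sets, 1416612_at and 1416613_at, lay at the 27.6 and 7.96 percentile and spanned 0.28 and 0.33 log2 units, and on neither was Dex + E2 replicate 2 the highest array. Dex + E2 replicate 2 belongs to the pair that differed most, and its part in the Cyp1b1 value was not tested beyond leaving it out.

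Nqo1 encodes a quinone reductase driven by both the aryl hydrocarbon receptor and Nrf2. Probe set 1423627_at, at the 76.9 percentile, had 8.01 and 8.03 in Dex + E2 cells, 7.94 and 8.04 in Dex cells, 7.93 and 8.23 in E2 cells, and 7.90 and 8.19 in untreated cells. All neighbouring groups overlapped, and replicate 2 was the higher array in all 4 groups. The E2 difference was 0.04 ± 0.12 with a 95% interval of -0.24 to 0.31 (limma, adjusted p = 0.996), and Dex + E2 minus E2 was -0.06 ± 0.12, interval -0.34 to 0.22 (limma, adjusted p = 0.882). A change of 1.5 times in Nqo1 lay outside both intervals.

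**Figure D3:**
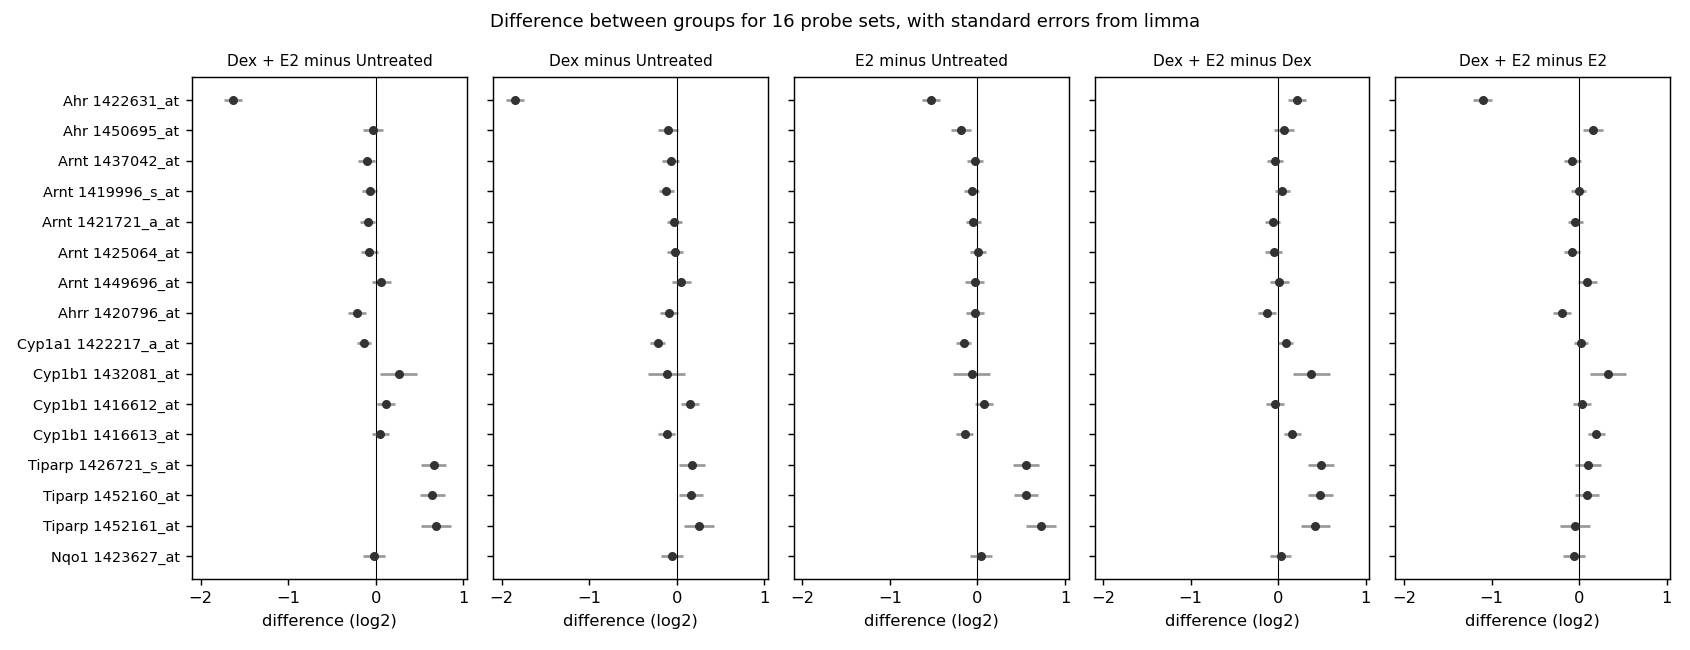
Log2 difference (points) with its standard error from limma (bars) for the 16 probe sets in 5 comparisons, named first minus second. Ahr 1422631_at lies far below 0 in the 3 comparisons with dexamethasone on 1 side, the 3 Tiparp probe sets lie above 0 in the comparisons with estradiol on 1 side, and most other points lie near 0.

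Counted over all 16 probe sets, limma called 0 for E2 against untreated, where it called 0.0355% of all probe sets. An unadjusted p under 0.05 was reached by 4 member probe sets, 1 of Ahr and 3 of Tiparp, against 5.42% of all. The other counts are over the 14 probe sets outside Ahr. For Dex + E2 against Dex limma called 0 of them (0.00666% of all), with 3 at an unadjusted p under 0.05, all of Tiparp (4.66% of all). For the mean estradiol effect it called 0 (0.0533% of all), with 3 unadjusted, again the Tiparp probe sets (4.23% of all). For the interaction it called 0 (0.00222% of all), with 1 unadjusted, of Cyp1b1 (5.46% of all). For Dex + E2 against E2 it called 0 (0.335% of all), with 0 at an unadjusted p under 0.05 (11.8% of all). For E2 against untreated, 3 member probe sets, all of Tiparp, had both E2 arrays above both untreated arrays and 6 had both below, where 16.0% and 18.9% of all probe sets did so. The 6 were both Ahr probe sets, 2 of Arnt, Cyp1a1 and 1 of Cyp1b1. The median difference of the members was -0.03 for E2 against untreated, against -0.01 over all probe sets.

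The closest profiles to Ahr were sought among 32582 probe sets with 1 gene symbol, by the root mean square difference over 8 arrays between profiles set to 0 at the untreated mean. The 5 nearest genes were Gdnf, a neurotrophic factor, at 0.13 log2 units, Phlda1, a pleckstrin-homology protein, at 0.14, Thbs1, a matrix glycoprotein, at 0.19, Ankrd1, a nuclear cofactor, at 0.21, and Artn, a factor of the Gdnf family, at 0.22. Gdnf had 6.16 and 6.19 in Dex + E2 cells, 6.02 and 6.11 in Dex cells, 7.69 and 7.16 in E2 cells, and 7.93 and 7.96 in untreated cells. Phlda1 stood -1.82 from untreated with Dex + E2, -1.71 with Dex and -0.57 with E2. Like Ahr, all 5 genes had both E2 arrays between the arrays with dexamethasone and the untreated arrays. The measure used all 8 arrays, so these values are a description of likeness and carry no test.

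**Figure D4:**
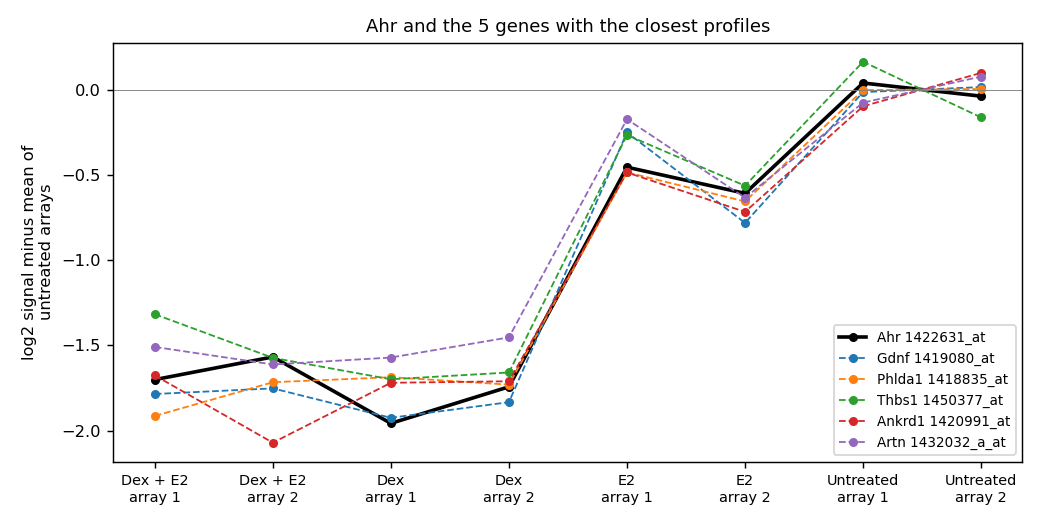
Log2 signal minus the mean of the untreated arrays (vertical axis) on each of 8 arrays (horizontal axis) for Ahr and the 5 genes nearest to it; lines only join the points of a gene. With dexamethasone all 6 genes lie between -2.07 and -1.32, and with estradiol alone between -0.78 and -0.17.

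Beyond the 7 members, 46 genes of 4 related lists were considered, using for each gene the probe set of highest average signal, and 40 had a probe set with 1 gene symbol. The others were not analysed here. With Dex + E2, 2 of the 40 were lower and 0 higher, and with Dex, 1 was lower and 0 higher (limma, adjusted p under 0.05), where 0.844% and 0.924% of all probe sets were called in either direction. At an unadjusted p under 0.05 there were 4 with Dex + E2 and 5 with Dex, against 8.16% and 5.69% of all probe sets. Their median difference was 0.023 with Dex + E2 and 0.0019 with Dex, against 0.0035 and 0.0014 over all probe sets.

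Both genes that passed belong to the 9 measured targets of the receptor. The 9 did not fall as a set. With Dex + E2, 5 lay above untreated and 4 below, from -1.09 to 0.12 with a median of 0.042. With Dex, 4 lay above and 5 below, from -0.95 to 0.068 with a median of -0.049. The lists were chosen with earlier results of these data known, so the p-values below are not independent of that choice. Ereg, the EGF-family ligand epiregulin, had 7.33 and 6.83 in Dex + E2 cells, 7.08 and 7.37 in Dex cells, 7.82 and 7.84 in E2 cells, and 8.19 and 8.16 in untreated cells. It fell by 1.09 ± 0.15 log2 units with Dex + E2 (limma, adjusted p = 0.00635) and by 0.95 ± 0.15 with Dex (limma, adjusted p = 0.0141), and both hormone groups lay below both untreated arrays. The Dex call was lost without untreated replicate 1 (adjusted p = 0.165), untreated replicate 2 (0.156) or Dex replicate 1 (0.228), and the Dex + E2 call without either untreated array (0.0953 and 0.0893). Ptgs2, the inducible prostaglandin synthase, had 9.35 and 8.96 in Dex + E2 cells, 9.52 and 9.46 in Dex cells, 9.44 and 9.10 in E2 cells, and 9.92 and 9.90 in untreated cells. It fell by 0.75 ± 0.14 with Dex + E2 (limma, adjusted p = 0.0389). With Dex its difference was -0.42 ± 0.14 (adjusted p = 0.514) and with E2 -0.64 ± 0.14 (adjusted p = 0.386). The E2 result depended on the probe set used. Averaged over all probe sets of each gene, the Ptgs2 difference with E2 was -0.77 and passed (limma, adjusted p = 0.0350). In that setting 17 of 18193 genes passed. The Ptgs2 call for Dex + E2 was lost without untreated replicate 1 (adjusted p = 0.290), untreated replicate 2 (0.300), Dex replicate 1 or 2 (0.0939 each) or Dex + E2 replicate 2 (0.216). The other P450 gene in this list, Cyp1a2, lay 0.06 from untreated with Dex + E2, 0.01 with Dex and 0.06 with E2.

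With all arrays and no replicate block, the other 3 lists held 0 genes past the threshold in each of the 7 comparisons fitted. Among 9 genes of the receptor complex and its bHLH-PAS relatives, which include Hsp90aa1 of the cytoplasmic complex and Hif1a, the other main partner of Arnt, differences ran from -0.13 to 0.19 with Dex + E2 and from 0.0060 to 0.24 with Dex, with 0 of 9 at an unadjusted limma p under 0.05 in each. Among 13 Nrf2 targets and regulators, which share Nqo1, they ran from -0.27 to 0.01 with Dex + E2 (1 unadjusted) and from -0.64 to 0.15 with Dex (3 unadjusted). The lowest of these with Dex was Osgin1, a stress-response gene named after its value was seen, which had 6.65 and 7.16 in Dex cells against 7.55 and 7.54 in untreated cells and did not pass (limma, adjusted p = 0.0907). With replicate 1 as the lone Dex array the Osgin1 difference was -0.90. Replicate 2, at 7.16, lay nearer to the untreated arrays, so the larger fall rests on 1 array. Among 9 enzymes of tryptophan-kynurenine metabolism, which makes ligands of the receptor, they ran from 0.0014 to 0.39 with Dex + E2 (1 unadjusted) and from -0.20 to 0.12 with Dex (0 unadjusted). Il4i1 and Ido1, 2 of these enzymes named after their values were seen, were dim, at the 27.9 and 32.0 percentile. On the 2 Dex + E2 arrays the amino acid oxidase gene Il4i1 had 4.61 and 5.19 and the dioxygenase gene Ido1 4.65 and 5.09. With all arrays Il4i1 did not pass in Dex + E2 against untreated, Dex or E2 (limma, adjusted p = 0.610, 0.971 and 0.277). Ido1 did not pass in Dex + E2 against E2 (limma, adjusted p = 0.452). With replicate 2 as the lone Dex + E2 array, these Il4i1 differences were 0.69, 0.89 and 0.88, and the Ido1 difference was 0.48. They were smaller on replicate 1. Il4i1 there was 4.61, against means of 4.50 in untreated, 4.30 in Dex and 4.31 in E2 cells. Ido1 on that array was 4.65, against a mean of 4.61 in E2 cells. With E2 alone 0 of the 40 genes passed in limma on the probe set used for each, where 0.0355% of all probe sets did. Among the 40, 3 had an unadjusted p under 0.05. Of all probe sets, 8.16% had an unadjusted p under 0.05 with Dex + E2, 5.69% with Dex and 5.42% with E2.

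**Figure D5:**
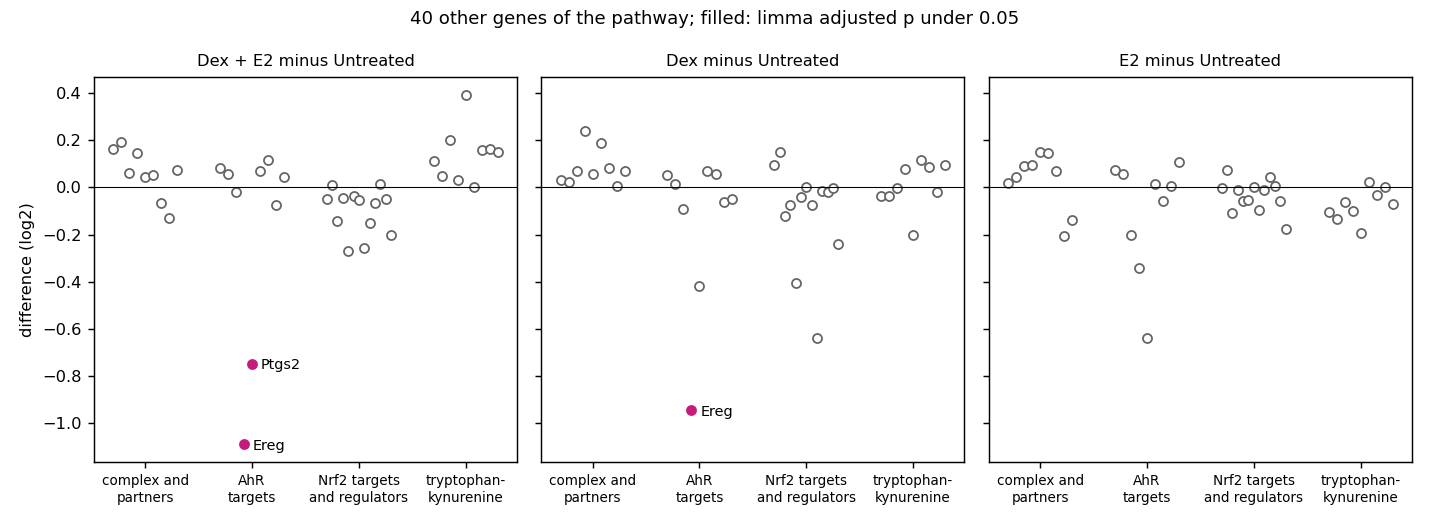
Log2 difference from untreated cells (vertical axis) for 40 other genes of the pathway in 4 lists (horizontal axis), with Dex + E2, Dex and E2; filled points passed the limma threshold. On the probe set shown for each gene, Ereg passed with Dex + E2 and Dex and Ptgs2 with Dex + E2, and 0 genes passed with E2.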

How the data were processed

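RNA of 8 samples of 1 cell line was measured on Affymetrix arrays. The deposited values are log2 signals made by the authors with RMA in Affymetrix Expression Console, per the submitters' processing notes; RMA corrects background, makes the arrays' distributions alike and summarises probes, which compresses differences of dim probe sets. Depth does not apply, and 2 arrays a group limit the precision (median SE of a group difference 0.10 log2 units).

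Of 45101 probe sets, 64 array controls were left out. Names come from the platform annotation (34945 probe sets with 1 symbol, 932 with several, 9160 not listed), and 34741 were matched to RefSeq by gene identifier. limma 3.58.1 in R 4.3.3 fitted 4 group means to all 8 arrays and 45037 probe sets, with empirical Bayes variances (prior df 6.29, residual df 4) and Benjamini-Hochberg adjustment over all of them; figures were drawn with matplotlib 3.10.9. The script was tested on simulated data. The members and gene lists were chosen with earlier results of these data known. Ahr is described without a test wherever its Dex + E2 level enters, although a test had been planned for 3 of those comparisons. Every member probe set is named; from the lists, up to 4 rises and 4 falls past the threshold against untreated, and the 5 genes nearest to Ahr. Alternatives left out each array, the probe sets with a mean under 5, or changed or crossed the block, gene summary, scaling, prior and arrays fitted. Promoters are from RefSeq (GRCm38.p6).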

Additional observations from a re-analysis of the deposited data

Results flagged for a closer look

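In 3 member probe sets the estradiol arrays lay apart from their partners in opposite directions with and without dexamethasone. The interaction is the difference between the 2 estradiol effects. For Ahr 1422631_at it was 0.75 ± 0.15 log2 units (SE), with estradiol differences of 0.22 with dexamethasone and -0.53 without it. It was not tested for Ahr, because it is built from levels by which the pathway was chosen. For Cyp1a1 1422217_a_at it was 0.24 ± 0.12 (limma, adjusted p = 0.881), and for Cyp1b1 1416613_at 0.31 ± 0.14 (limma, adjusted p = 0.881). Neither of these passed. The same pattern of arrays occurred in 2649 of 45037 probe sets (5.88%).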

How the results depend on the processing

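The differences of Ahr 1422631_at, or of the mean of both Ahr probe sets, kept their direction under every alternative run. The other Ahr probe set, 1450695_at, was not rerun alone. Averaged over its 2 probe sets, Ahr was -0.97 for Dex, -0.83 for Dex + E2 and -0.47 for Dex + E2 against E2. The Tiparp interaction turned: over the arrays left out it ran from -0.30 to 0.15, -0.24 to 0.10 and -0.57 to -0.03 on 1426721_s_at, 1452160_at and 1452161_at, and without both E2 replicate 2 and Dex + E2 replicate 1 (an alternative chosen after seeing the data) it was 0.29, 0.21 and 0.13. Tiparp in Dex + E2 against E2 ran from -0.12 to 0.33, -0.079 to 0.26 and -0.32 to 0.23 over the arrays left out, and was 0.46, 0.37 and 0.39 without those 2 arrays. Member genes past the threshold numbered 0 to 1 over the arrays left out for Dex + E2 against Dex, for the mean estradiol effect and for Dex + E2 against E2. Without those 2 arrays they were 2 for Dex + E2 against Dex and 1 for the mean effect, which was also 1 with a trended, robust prior. Pathway genes past the threshold ran over the arrays left out from 0 to 1 for Dex + E2 against Dex and the mean effect, 0 to 3 for Dex + E2 against E2, 0 to 2 for Dex and 0 to 3 for Dex + E2. Without those 2 arrays they were 1, 1 and 2 in the first 3 of these. Averaging all probe sets of each gene, Ptgs2 made it 1 for E2 and 1 for the mean effect, and with only the arrays compared it was 1 for Dex + E2. The cause was not tested. Over all probe sets, Dex + E2 against E2 had 1974 calls without Dex + E2 replicate 1, against 151 with all arrays, and 30 without E2 replicate 1; Dex + E2 had 1436 without Dex + E2 replicate 1, against 380, and Dex had 170 without Dex replicate 1, against 416. E2 had 46 calls with the trended, robust prior, against 16, and the mean effect 76, against 24 (71 without Dex + E2 replicate 1). Dex + E2 against Dex had 168 without Dex + E2 replicate 1 and 243 without both arrays, against 3. Same-numbered replicates correlated in their deviations at 0.16, 0.31 and 0.23 among untreated, Dex and E2, and at -0.25, -0.11 and -0.19 between Dex + E2 and each of these. Not every pair lay above 0, so the numbers were not taken to pair the samples. With the replicate block Ahr for E2 was -0.53 (limma, adjusted p = 0.384) and 0 members passed. In that setting 1 and 2 pathway genes passed for Dex and Dex + E2, where 372 and 338 of 45037 probe sets passed in all. With the Dex + E2 numbers crossed in the block, an alternative chosen after seeing the data, 0 members and 2 pathway genes passed for Dex + E2 against E2, where 451 probe sets passed in all. Dim probe sets limit what Ahrr, Cyp1a1 and Cyp1b1 can show.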
